A study of Rattus norvegicus with 18 samples.

Results

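Laminins and their basal lamina partners were followed as 10 genes on rat expression arrays. They were the laminin chains Lama2, Lama4, Lama5, Lamb1, Lamb2 and Lamc1, the nidogens Nid1 and Nid2, the perlecan gene Hspg2 and the agrin gene Agrn. Members were chosen by name, with earlier results of these data known. Their counts and medians beside those of all named genes are therefore descriptions and not an independent comparison. Every probe set that the platform annotation assigns to 1 of these symbols was used, which gave 15 probe sets for 10 of the 14217 named genes. Of the members, 6 had 1 probe set, 3 had 2 (Lama4, Lamc1 and Nid1) and 1 had 3 (Lama5).

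The RNA came from rat spinal cord material and was measured on 18 single-channel Affymetrix arrays. The material of 6 arrays had received bone morphogenetic protein (BMP) at 10 ng/mL for a time labelled 4 days. BMPs are secreted factors related to TGF-beta that act through SMAD proteins. On another 6 arrays the material had received ciliary neurotrophic factor (CNTF) at 10 ng/mL, with the same time label. CNTF is a cytokine of the interleukin-6 family that activates STAT3. The remaining 6 arrays were controls with no addition named and no entry of days like that of the treated arrays. The labels of the 6 control arrays open with "14 NT", an entry that was not interpreted. It is therefore not known here whether controls and treated material were of the same age. Which BMP was used, and in which cells, strain or culture, is not stated in the labels. They also do not say that arrays of 1 group came from separate animals or cultures, so each p-value here is set against a spread between arrays that can be technical in part.

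Laminins are cross-shaped proteins of an alpha, a beta and a gamma chain that assemble into a sheet on the cell surface, held there by integrins and dystroglycan. Nidogens bridge laminin to the collagen IV network, while perlecan and agrin are heparan sulfate proteoglycans that bind laminin and growth factors. In the spinal cord this sheet lies under the glia limitans, where astrocyte endfeet meet the pia, and around blood vessels.

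Titles carry a number from 1 to 6 that occurs once per group, and an array is called by its group and this number. Arrays with the same number deviated from their group means together, so values are also given within numbers, and the test was repeated with the number as a block. Levels are log2(intensity + 116.655) and a difference is the first group named minus the second, with limma's standard error. Fold values come from this scale and understate the change of dim genes. A gene is represented by its brightest probe set and was called at an adjusted p under 0.05. The table median was 9.75 on this scale. Among the members, the mean of Lama2 lay below it. Array medians were 666.5 to 817.2 in intensity.

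On BMP arrays, 2 laminin chains rose against control. Lamb2 was 2.10-fold higher. Lama2 was 2.46-fold higher on the scale used, a size set by the added constant because its control signal is dim. In both genes every BMP array lay above every control array. No member fell, and none was lower at an unadjusted p under 0.05 in limma. The calls covered 2 of 10 members, beside 4.21% of all named genes called higher. With the title number as a block, 8 of 10 members were called higher, beside 10.6% of named genes. The members without a call there were Nid1 and Agrn. On CNTF arrays, 1 member, Agrn, fell against control, beside 0.823% of named genes, and none was called higher, although Lamb2 had an unadjusted p of 0.00128 in limma. Against CNTF, 6 of 10 members were higher on BMP arrays, beside 3.74% of named genes. These 6 were Lama2, Lama4, Lamb2, Nid1, Hspg2 and Agrn. That count dropped to 2 when BMP array 1 was left out, also to 2 without all arrays of number 1 or of number 2, and to 3 without all arrays of number 3 or of number 5.

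**Figure D1:**
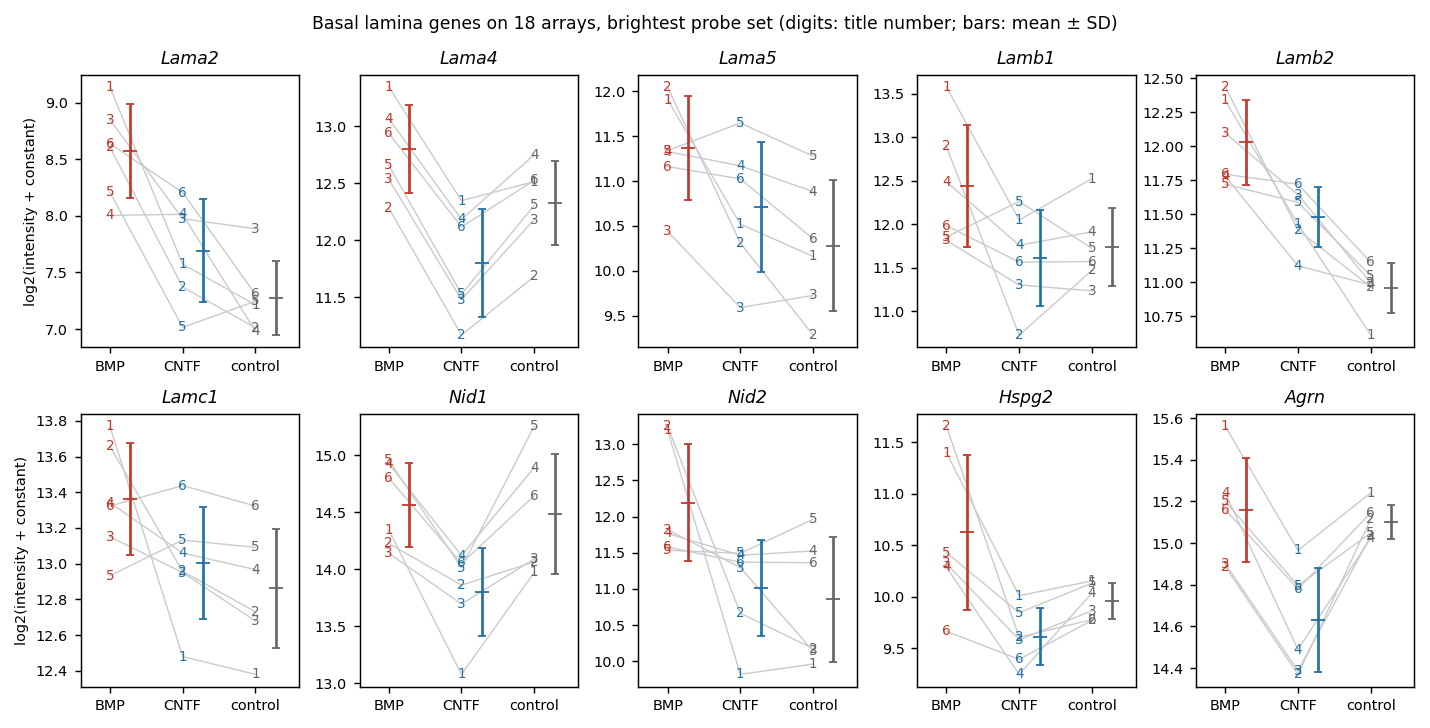
Level of each gene on 18 arrays, as log2(intensity + 116.655), with BMP, CNTF and control from left to right. Digits are title numbers, grey lines join arrays of the same number, and bars show the mean and SD of 6 arrays; BMP and control do not overlap for Lama2 and Lamb2, and the CNTF mean is the lowest for Agrn, Nid1, Lama4, Hspg2 and Lamb1.

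Promoter sequences were looked up in RefSeq (rat build GRCr8) for the 250 bases before the annotated start, and 8 of the 10 members matched. The sequences were searched on both strands for GGCGCC, a GC-rich element bound by BMP-activated SMAD proteins, for GTCTAGAC, the palindromic SMAD element, and for TTCNNNGAA, the consensus of STAT factors. Each of these reads the same on both strands, and no match in a member overlaps another. The 4 printed are those of members called in at least 1 comparison that together show promoters with and without a match. They are Lama2 at chr1:19491896-19492145 on the plus strand, Lama4 at chr20:43946648-43946897 on the plus strand, Hspg2 at chr5:154960596-154960845 on the plus strand and Agrn at chr5:172052826-172053075 on the minus strand. Capitals mark GGCGCC.
Lama2: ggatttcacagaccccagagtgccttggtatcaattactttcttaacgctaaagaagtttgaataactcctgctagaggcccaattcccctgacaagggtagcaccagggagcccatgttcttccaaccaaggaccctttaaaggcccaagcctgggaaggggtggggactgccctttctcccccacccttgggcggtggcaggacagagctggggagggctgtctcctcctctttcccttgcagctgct
Lama4: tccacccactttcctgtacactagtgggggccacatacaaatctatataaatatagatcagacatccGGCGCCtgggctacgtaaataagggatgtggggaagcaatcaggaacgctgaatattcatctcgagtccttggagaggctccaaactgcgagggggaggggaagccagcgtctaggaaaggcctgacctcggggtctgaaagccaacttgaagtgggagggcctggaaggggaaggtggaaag
Hspg2: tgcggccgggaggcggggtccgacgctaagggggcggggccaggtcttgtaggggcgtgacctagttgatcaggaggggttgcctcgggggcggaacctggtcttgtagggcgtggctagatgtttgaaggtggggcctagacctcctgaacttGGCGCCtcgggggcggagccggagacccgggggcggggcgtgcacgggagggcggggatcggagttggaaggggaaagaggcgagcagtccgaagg
Agrn: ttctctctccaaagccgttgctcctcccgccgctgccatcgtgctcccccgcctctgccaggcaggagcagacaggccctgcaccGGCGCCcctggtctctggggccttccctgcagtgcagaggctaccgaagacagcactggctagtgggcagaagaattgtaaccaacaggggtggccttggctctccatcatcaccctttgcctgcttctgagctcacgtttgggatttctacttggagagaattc
GGCGCC stood once in 5 of the 8 member promoters, and in 2910 of all 33469 rat promoters of that length (8.69%). Counted from the annotated start, its first base lay at -183 in Lama4, -133 in Lama5, -146 in Lamb1, -96 in Hspg2 and -165 in Agrn. It was not found in Lama2, Lamc1 or Nid1. All 8 member promoters held more G and C than the median of 51.2% over all promoters. They ran from 53.2% in Lama4 and 55.6% in Lama2, near that median, up to 72.8% in Lama5. TTCNNNGAA was found in 0 of 8 and in 7.67% of all promoters, and GTCTAGAC in 0 of 8 and in 0.173%. A match is a description of the letters in this window and not a bound site.

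Lama2 encodes the alpha2 chain of merosin, and its loss causes a congenital muscular dystrophy in humans. It lay between 8.0 and 9.14 on BMP arrays (median 8.62), between 7.01 and 8.21 on CNTF arrays (median 7.77) and between 6.98 and 7.89 on control arrays (median 7.23). The lowest BMP array stood above the highest control array, CNTF overlapped both, and the order of the means was BMP, CNTF, control. The difference of BMP from control was 1.30 ± 0.23 (limma, adjusted p = 0.00183), positive in 6 of 6 numbers, between 0.96 and 1.93. CNTF did not pass against control (0.42 ± 0.23, limma, adjusted p = 0.529). BMP lay 0.88 ± 0.23 above CNTF (limma, adjusted p = 0.0225). That last call was lost without BMP array 1 (0.0566), BMP array 3 (0.0552), CNTF array 2 (0.0536) or CNTF array 5 (0.0584), as adjusted p in limma. It was also lost without all arrays of number 1 (0.111), 2 (0.108) or 5 (0.0647).

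Lama2 was dim. Its median intensity was 277.4 on BMP arrays, 104.3 on CNTF arrays and 33.5 on control arrays, where the table median was 746.4. The size of its difference therefore depends on the added constant. BMP minus control was 2.49 with a constant of 16 and 0.37 with a constant at the table median, and it was called in both. BMP minus CNTF with the constant of 16 was 1.52 and was not called (limma, adjusted p = 0.0652).

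Lama4 encodes the alpha4 chain, best known from the basement membrane of blood vessels. Its brightest probe set lay between 12.28 and 13.34 on BMP arrays (median 12.80), between 11.17 and 12.35 on CNTF arrays (median 11.82) and between 11.68 and 12.75 on control arrays (median 12.41). All 3 groups overlapped, and the array of number 2 was the lowest in each of them. Within numbers the order BMP, control, CNTF held in 6 of 6. Between BMP and CNTF the difference was 1.0 ± 0.22 (limma, adjusted p = 0.00775), with within-number values between 0.82 and 1.13. For BMP minus control it was 0.48 ± 0.22 (limma, adjusted p = 0.238, and 0.000497 with the number as a block). For CNTF minus control it was -0.52 ± 0.22 (limma, adjusted p = 0.326, and 0.000531 with the block). The second Lama4 probe set lay at 9.37 ± 0.40 on BMP arrays, 8.70 ± 0.35 on CNTF arrays and 9.40 ± 0.17 on control arrays (SD, n = 6 each). It matched the first in BMP minus CNTF (0.67, limma, adjusted p = 0.043) and in CNTF minus control (-0.70, limma, adjusted p = 0.0645, and 0.0162 with the block). For BMP minus control it gave -0.032 (limma, adjusted p = 0.961, and 0.932 with the block), so the 2 probe sets of Lama4 disagree on that comparison.

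Lama5 encodes the alpha5 chain, widespread in mature basement membranes. The brightest probe set lay between 10.44 and 12.05 on BMP arrays (median 11.33), between 9.59 and 11.65 on CNTF arrays (median 10.77) and between 9.28 and 11.28 on control arrays (median 10.26). The groups overlapped broadly, with BMP arrays 1 and 2 highest and control array 2 lowest. The Lama5 difference of BMP from control was 1.09 ± 0.36 (limma, adjusted p = 0.0777, and 0.0102 with the block). The within-number values were positive in 6 of 6 and ran between 0.063 at number 5 and 2.77 at number 2. Leaving out BMP array 3 (0.0468) or control array 5 (0.0367) gave a call, as adjusted p in limma. The other comparisons did not pass, with 0.43 ± 0.36 for CNTF minus control (limma, adjusted p = 0.774) and 0.66 ± 0.36 for BMP minus CNTF (limma, adjusted p = 0.366). The other Lama5 probe sets were dim. The second averaged 8.07 ± 0.31 on BMP arrays, 8.23 ± 0.24 on CNTF arrays and 8.07 ± 0.26 on control arrays (SD, n = 6 each) and gave -0.0020 for BMP minus control (limma, adjusted p = 0.997). The third gave 0.49 in the same comparison (limma, adjusted p = 0.109). The 3 probe sets of Lama5 therefore do not give 1 picture.

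Lamb2 encodes the beta2 chain, known from the neuromuscular junction and the kidney glomerulus. It lay between 11.72 and 12.44 on BMP arrays (median 11.95), between 11.12 and 11.72 on CNTF arrays (median 11.51) and between 10.61 and 11.15 on control arrays (median 10.99). BMP did not overlap with control. It was separate from CNTF only by a near tie, with the lowest BMP array at 11.7217 and the highest CNTF array at 11.7210. CNTF array 4 lay just below control array 6. Lamb2 was higher by 1.07 ± 0.14 on BMP than on control arrays (limma, adjusted p = 0.000407), between 0.65 and 1.73 within numbers. BMP minus CNTF was 0.55 ± 0.14 (limma, adjusted p = 0.0211), higher in 6 of 6 numbers. The difference of CNTF from control was 0.52 ± 0.14, also higher in 6 of 6 numbers, and did not pass (limma, adjusted p = 0.0534, and 0.0266 with the block). Lamb2 thus held the same order, BMP over CNTF over control, in every number. The comparison of BMP with CNTF lost its call without BMP array 1 (0.0542), BMP array 2 (0.057) or CNTF array 4 (0.0526). This comparison also lost its call without all arrays of number 1 (0.071), 2 (0.128) or 3 (0.0642). That of CNTF with control gained one without BMP array 1 (0.0457), BMP array 2 (0.0388) or CNTF array 4 (0.0289), all as adjusted p in limma.

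Lamb1 encodes the beta1 chain, the partner of gamma1 in the first laminin described. It lay between 11.82 and 13.58 on BMP arrays (median 12.24), between 10.73 and 12.26 on CNTF arrays (median 11.66) and between 11.24 and 12.53 on control arrays (median 11.65). The upper end of BMP came from arrays 1 and 2, and the other 4 BMP arrays lay within the range of the controls. Lamb1 had a BMP minus control difference of 0.70 ± 0.30 (limma, adjusted p = 0.202, and 0.0414 with the block), higher in 6 of 6 numbers. Its BMP minus CNTF difference was 0.83 ± 0.30 (limma, adjusted p = 0.122, and 0.0181 with the block), higher in 5 of 6. CNTF minus control was -0.13 ± 0.30 (limma, adjusted p = 0.955), with numbers on both sides of 0.

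Lamc1 encodes gamma1, the chain that most laminin trimers share. It lay between 12.93 and 13.77 on BMP arrays (median 13.33), between 12.48 and 13.44 on CNTF arrays (median 13.01) and between 12.38 and 13.32 on control arrays (median 12.85). Lamc1 had a BMP minus control difference of 0.50 ± 0.17 (limma, adjusted p = 0.092, and 0.0445 with the block). The second Lamc1 probe set gave 0.53 ± 0.16 (limma, adjusted p = 0.0606, and 0.0134 with the block). Both probe sets had their largest value at number 1, 1.39 and 1.24, and the first had its lowest at number 5, -0.16, the 1 number of opposite sign. Neither passed for CNTF against control (0.14 and 0.26, limma, adjusted p = 0.883 and 0.642) or for BMP against CNTF (0.36 and 0.27, limma, adjusted p = 0.278 and 0.437).

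**Figure D2:**
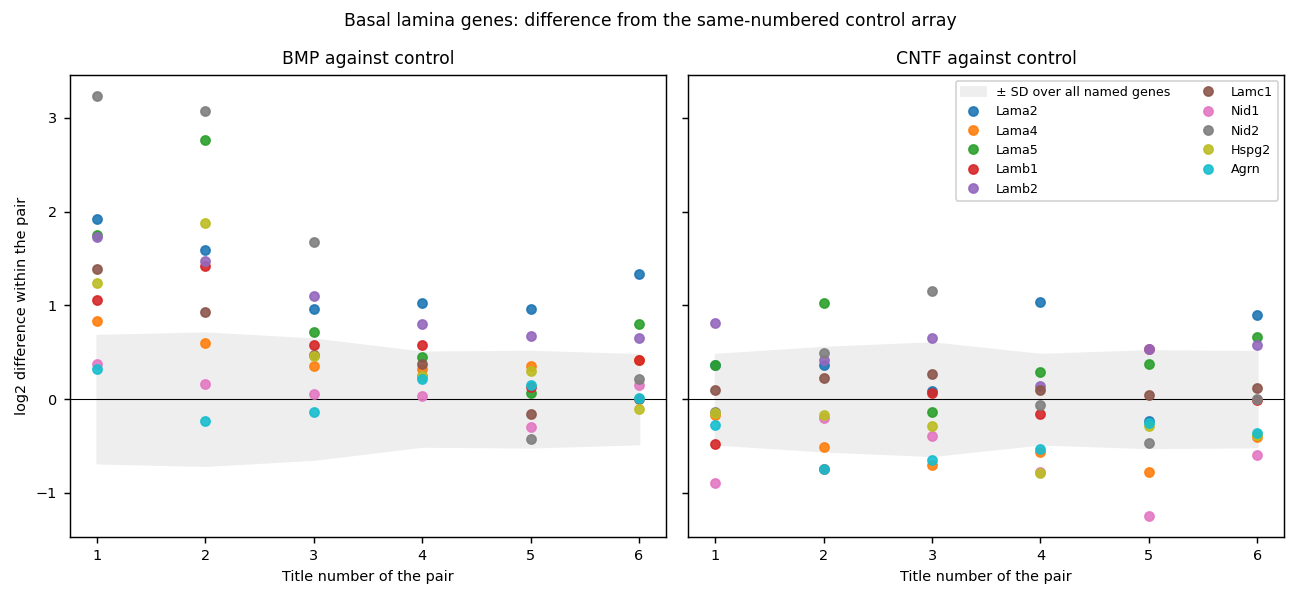
Difference of each gene from the control array of the same number, for BMP on the left and CNTF on the right, on the log2 scale, with the grey band at 1 SD over all named genes. At numbers 1 and 2 the BMP differences reach 3.24 and 3.07 for Nid2, while those of Lama2 stay between 0.96 and 1.93 at all numbers.

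Nid1 encodes nidogen-1, a link between laminin and collagen IV. It lay between 14.14 and 14.96 on BMP arrays (median 14.57), between 13.08 and 14.12 on CNTF arrays (median 13.94) and between 13.97 and 15.26 on control arrays (median 14.37). BMP and CNTF did not overlap, and all BMP arrays lay within the range of the controls. BMP minus CNTF was 0.76 ± 0.23 (limma, adjusted p = 0.0492, and 0.000206 with the block), higher in 6 of 6 numbers. This call sat at the threshold. It was lost for each of 12 of the 18 arrays left out singly (limma, adjusted p between 0.0504 and 0.11), namely BMP arrays 1, 2, 4, 5 and 6, CNTF arrays 1, 2, 3, 5 and 6, and control arrays 2 and 6. It was also lost without all arrays of any 1 number (limma, adjusted p between 0.0792 and 0.127). The same held with a constant of 16 (0.0504) or at the table median (0.0505), and without an intensity trend (0.0675). With CNTF the difference from control was -0.68 ± 0.23 (limma, adjusted p = 0.152, and 0.00121 with the block), lower in 6 of 6 numbers. With BMP the difference from control was 0.080 ± 0.23 (limma, adjusted p = 0.909). The second Nid1 probe set had the same signs, 0.62 for BMP minus CNTF (limma, adjusted p = 0.201, and 0.00103 with the block) and -0.52 for CNTF minus control (limma, adjusted p = 0.479, and 0.00838 with the block).

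Nid2 encodes nidogen-2, the second link of this kind. It lay between 11.53 and 13.25 on BMP arrays (median 11.79), between 9.82 and 11.49 on CNTF arrays (median 11.33) and between 9.96 and 11.96 on control arrays (median 10.77). Every BMP array was above every CNTF array, while 4 of the BMP arrays lay within the control range. Nid2 had a BMP minus control difference of 1.34 ± 0.40 (limma, adjusted p = 0.0555, and 0.0445 with the block). Its within-number values were 3.24, 3.07 and 1.68 at numbers 1 to 3 and 0.24, -0.43 and 0.22 at numbers 4 to 6. The control arrays also fell apart this way, with 9.96, 10.17 and 10.14 at numbers 1 to 3 and 11.52, 11.96 and 11.36 at numbers 4 to 6. The call appeared when any 1 of 5 arrays was left out, which were CNTF array 1 (0.0389), control array 4 (0.0484), control array 5 (0.0271), BMP array 5 (0.0486) and BMP array 6 (0.045), as adjusted p in limma. The difference of BMP from CNTF was 1.17 ± 0.40 and did not pass (limma, adjusted p = 0.0994). CNTF minus control was 0.16 ± 0.40 (limma, adjusted p = 0.958). The annotation also lists Nid2 pseudogenes on 4 other probe sets, so the assignment of this signal to Nid2 itself is uncertain. The brightest of these 4 had a BMP minus control difference of 0.93 (limma, adjusted p = 0.0523).

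Hspg2 encodes perlecan, a large proteoglycan that binds growth factors in the basal lamina. It lay between 9.67 and 11.65 on BMP arrays (median 10.38), between 9.25 and 10.01 on CNTF arrays (median 9.60) and between 9.77 and 10.16 on control arrays (median 9.95). BMP arrays 1 and 2 stood apart at 11.40 and 11.65, and the other 4 BMP arrays lay between 9.67 and 10.43. Hspg2 was higher by 1.01 ± 0.26 on BMP than on CNTF arrays, a 2.01-fold difference (limma, adjusted p = 0.0212), higher in 6 of 6 numbers, between 0.27 and 2.05. That call was lost without BMP array 1 (0.0532) or CNTF array 6 (0.0519), as adjusted p in limma. It was also lost without all arrays of number 1 (0.0519), 2 (0.0933), 3 (0.0593), 4 (0.0574) or 5 (0.0533). BMP minus control was 0.67 ± 0.26 (limma, adjusted p = 0.142, and 0.0392 with the block), and it was called without BMP array 6 (adjusted p = 0.0303). The CNTF minus control difference was -0.34 ± 0.26, lower in 6 of 6 numbers, and did not pass (limma, adjusted p = 0.729).

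Agrn encodes agrin, which clusters acetylcholine receptors at the neuromuscular junction and binds dystroglycan. It lay between 14.89 and 15.56 on BMP arrays (median 15.18), between 14.37 and 14.97 on CNTF arrays (median 14.63) and between 15.03 and 15.24 on control arrays (median 15.08). The controls spread by only 0.083 (SD, n = 6), and every CNTF array lay below every control array. Agrn had a CNTF minus control difference of -0.47 ± 0.11, 0.722 times the control level (limma, adjusted p = 0.0318, and 0.000629 with the block). Its within-number values lay between -0.75 and -0.25. The call was lost without control array 1 (0.0761), 2 (0.0641) or 6 (0.0643), or without CNTF array 2 (0.0826), 3 (0.0861) or 4 (0.0726), and without an intensity trend in limma (0.0649). BMP minus CNTF was 0.53 ± 0.11 (limma, adjusted p = 0.00749, and 0.000106 with the block), higher in 6 of 6 numbers. It was called whichever single array was left out. BMP minus control was 0.057 ± 0.11 (limma, adjusted p = 0.863). The Agrn means were 15.16 ± 0.25 on BMP arrays, 14.63 ± 0.25 on CNTF arrays and 15.10 ± 0.083 on control arrays (SD, n = 6 each), with CNTF alone apart from control.

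**Figure D3:**
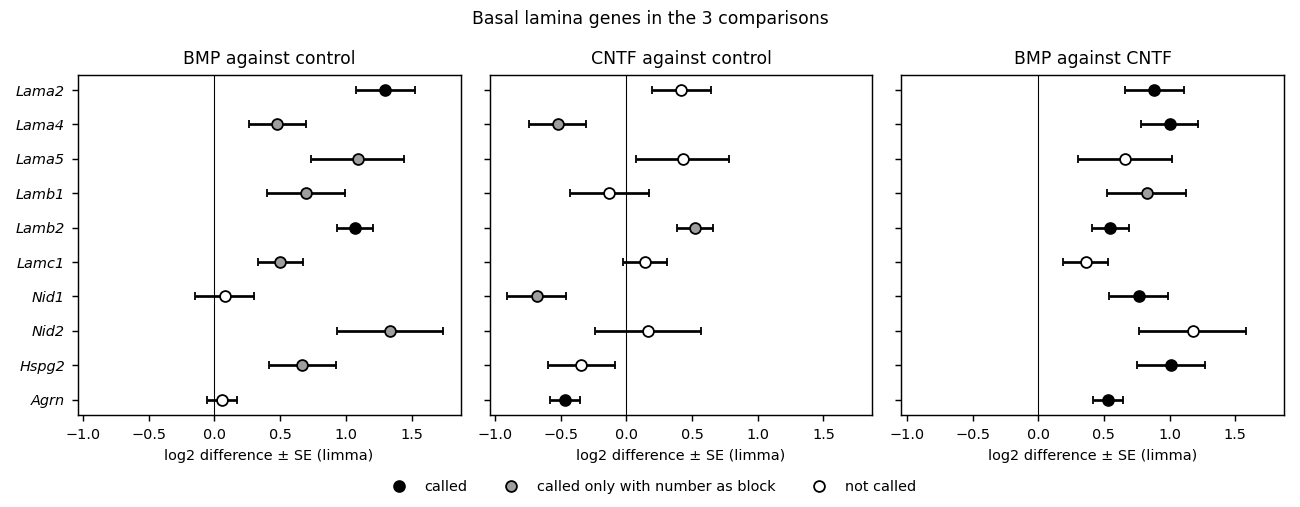
Differences of the 10 genes in the 3 comparisons (BMP with control, CNTF with control, BMP with CNTF), as log2 difference with limma's standard error. Black points were called, grey points were called only with the title number as a block, and open points were not called; all 10 points are above 0 in BMP against control, between 0.057 and 1.34, and in BMP against CNTF, between 0.36 and 1.17.

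Over all members together, the median difference of the 10 members was 0.68 in BMP against control, where the median of all named genes was 0.0054. How far medians of 10 genes spread was not tested. It was 0.0059 in CNTF against control, with 5 members higher and 5 lower, beside -0.0046 for all genes. In BMP against CNTF it was 0.79, beside 0.0059 for all genes. The 2 differences with control share their control arrays, and so do the 2 differences with BMP arrays. In every one of 6 same-numbered pairs, 5 members (Lama2, Lama4, Lama5, Lamb1 and Lamb2) were higher on the BMP than on the control array, as were 10.9% of named genes. In CNTF against control, 2 (Lamb2 and Lamc1) were higher in every pair beside 8.85% of genes, and 4 (Lama4, Nid1, Hspg2 and Agrn) were lower in every pair beside 8.45%. In BMP against CNTF, 6 (Lama4, Lamb2, Nid1, Nid2, Hspg2 and Agrn) were higher in every pair beside 10.9%. Groups did not overlap for 2 members in BMP against control, beside 1.97% of genes higher without overlap, for 1 in CNTF against control (Agrn, beside 0.788% of genes lower without overlap), and for 3 (Lamb2, Nid1 and Nid2) in BMP against CNTF, beside 1.77%. For Lamb2 that last separation was a near tie. With the number as a block, 1 member was called higher in CNTF against control (Lamb2, beside 5.42% of genes) and 3 lower (Agrn, Lama4 and Nid1, beside 4.05%). In BMP against CNTF the block gave 7, which adds Lamb1, beside 9.36% of genes.

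The BMP difference of the members was not even over the title numbers. Their median against the same-numbered control was 1.32 and 1.45 at numbers 1 and 2, 0.53 at number 3, and 0.35, 0.14 and 0.31 at numbers 4, 5 and 6. The spread over all named genes was also wider at the first 3 numbers, with SDs of 0.68, 0.71 and 0.64, than at the last 3, with 0.50, 0.51 and 0.48. Every member except Agrn had its 2 highest values at numbers 1 and 2, and the lowest within-number values of Lama2 and Lamb2 were 0.96 and 0.65. Without all 3 arrays of number 2, Lama2 and Lamb2 were still called against control (limma, adjusted p = 0.02 and 0.00676).

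Across the 18 arrays, which share groups and numbers, Lamc1 and Nid2 had the highest correlation of any pair of members (Pearson r = 0.901, and 0.853 after group means were removed). Lama2 and Lamb2 correlated at 0.813, which dropped to 0.346 without the group means. Lama4 and Agrn correlated at 0.798 (0.636 within groups) and Lamb1 and Hspg2 at 0.773 (0.651 within groups). The lowest value was that of Lamb2 and Nid1 at 0.009. By the fixed rule, the genes of most similar pattern over the 18 arrays were Decr1 (r = 0.844), Gpx8 (0.842) and Olfml2b (0.841) for Lama2, and Ppic (0.881), Zfp664 (0.868) and Zbtb8a (0.857) for Lama4. For Lamb2 they were Akap12 (0.907), Anxa11 (0.893) and Vamp8 (0.892), and for Nid1 Ctnnd2 (0.904), Isoc1 (0.897) and Dhrs11 (0.894). For Hspg2 they were Fstl1 (0.914), Fbn2 (0.901) and Hoxa5 (0.866), and for Agrn Myorg (0.876), Mllt3 (0.864) and Alkbh7 (0.858). These values are descriptions of 18 arrays.

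Receptors of laminin and agrin were the partner list with the most calls. In BMP against control 3 of 10 measured genes were called higher, 7 with the number as a block, beside 4.21% and 10.6% of all named genes. None was lower, also at an unadjusted p under 0.05 in limma. The list's median difference was 0.74. Itga3, the alpha subunit of a laminin-binding integrin, averaged 10.17 ± 0.25 on BMP arrays and 8.88 ± 0.15 on control arrays (SD, n = 6 each), a difference of 1.29 ± 0.21 (limma, adjusted p = 0.00127). Itgb4, the integrin beta subunit of hemidesmosomes, was higher by 1.34 ± 0.31 (limma, adjusted p = 0.0117), between 0.29 and 2.57 within numbers. Itga6, the alpha subunit that pairs with it, was higher by 0.93 ± 0.25 (limma, adjusted p = 0.0304). Itga3 and Itgb4 were among the 5 of 10 receptors with a mean below the table median, where the added constant affects the size of a difference. Of the 3 other Itga6 probe sets, 2 were also called (1.14 and 1.06, limma, adjusted p = 0.0114 and 0.0178), and the dimmest was at -0.11 (limma, adjusted p = 0.807). The Itga6 call was lost without control array 1 (0.0581), 2 (0.0688), 3 (0.0696) or 4 (0.0506) or without BMP array 1 (0.078), 5 (0.0524) or 6 (0.0627). Against CNTF, Itga3 was higher by 0.81 ± 0.21 (limma, adjusted p = 0.0254) and Itgb4 by 1.32 ± 0.31 (limma, adjusted p = 0.0116). The Itga3 call there was lost without BMP array 1 (0.0545), BMP array 2 (0.0643) or CNTF array 1 (0.0518). In CNTF against control 0 of 10 receptors passed in limma, where 1 was higher and 1 lower by an unadjusted p below 0.05. With the block, Dag1, the dystroglycan gene, was called lower there (-0.23, limma, adjusted p = 0.0172). Dag1 was picked from these values after they were seen.

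Among the other glycoproteins of basement membranes, 1 of 11 measured genes was called higher in BMP against control. For lists of this size, 1 call is near the 4.21% of all named genes, here and for the collagens and the dystroglycan list. The gene was Sparc, a collagen-binding matricellular protein, which averaged 14.57 ± 0.26 on BMP arrays and 13.35 ± 0.42 on control arrays (SD, n = 6 each). The difference was 1.22 ± 0.18 (limma, adjusted p = 0.00082), and against CNTF it was 0.99 ± 0.18 (limma, adjusted p = 0.00245). Both Sparc calls held whichever array was left out, and the second Sparc probe set gave 1.08 and 0.90. Of the 7 measured basement membrane collagens, 1 was called. Col4a5, the alpha5 chain of collagen IV, was higher by 1.54 ± 0.39 in BMP against control (limma, adjusted p = 0.0227), and not without BMP array 1 (0.0607), BMP array 2 (0.0602) or control array 4 (0.0521). Col4a1 and Col4a2, the chains of the common collagen IV trimer and named here after their values were seen, differed from control under CNTF only with the block (0.68 and 0.56, limma, adjusted p = 0.00561 and 0.0255, against 0.314 and 0.131 without it). In BMP against control Col4a1 was at -0.019 (limma, adjusted p = 0.984, and 0.952 with the block). Col4a2 was at 0.49 there and higher in 6 of 6 numbers (limma, adjusted p = 0.121, and 0.0287 with the block), close in size to its difference under CNTF.

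The dystroglycan complex and the enzymes that glycosylate it had 9 of 17 genes measured, and 1 was called in BMP against control. Pomgnt1, a transferase that extends the O-mannosyl sugar of dystroglycan, was higher by 0.28 ± 0.082 (limma, adjusted p = 0.0437). That call was lost for 11 of the 18 arrays left out singly, BMP arrays 1, 2, 3, 4 and 6, CNTF array 2 and control arrays 1, 2, 3, 5 and 6 (limma, adjusted p between 0.0517 and 0.103). B4gat1, a glycosyltransferase of the same pathway named here after its values were seen, was lower in 6 of 6 numbers in BMP against control (-0.21) and in CNTF against control (-0.23). It did not pass in either (limma, adjusted p = 0.126 and 0.151, and 0.014 and 0.0139 with the block). The list's median difference was 0.073, that of the collagens 0.62 and that of the glycoproteins 0.45. Of the other laminin chains, Lama1, Lama3, Lamb3 and Lamc3 were measured and all lay below the table median. None was called in any comparison, and in BMP against control 1 was higher at an unadjusted p under 0.05 in limma. In CNTF against control no gene of these 4 lists was called. At an unadjusted p under 0.05 in limma, 2 collagens were higher there, and 1 laminin chain and 1 gene of the dystroglycan list were lower.

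**Figure D4:**
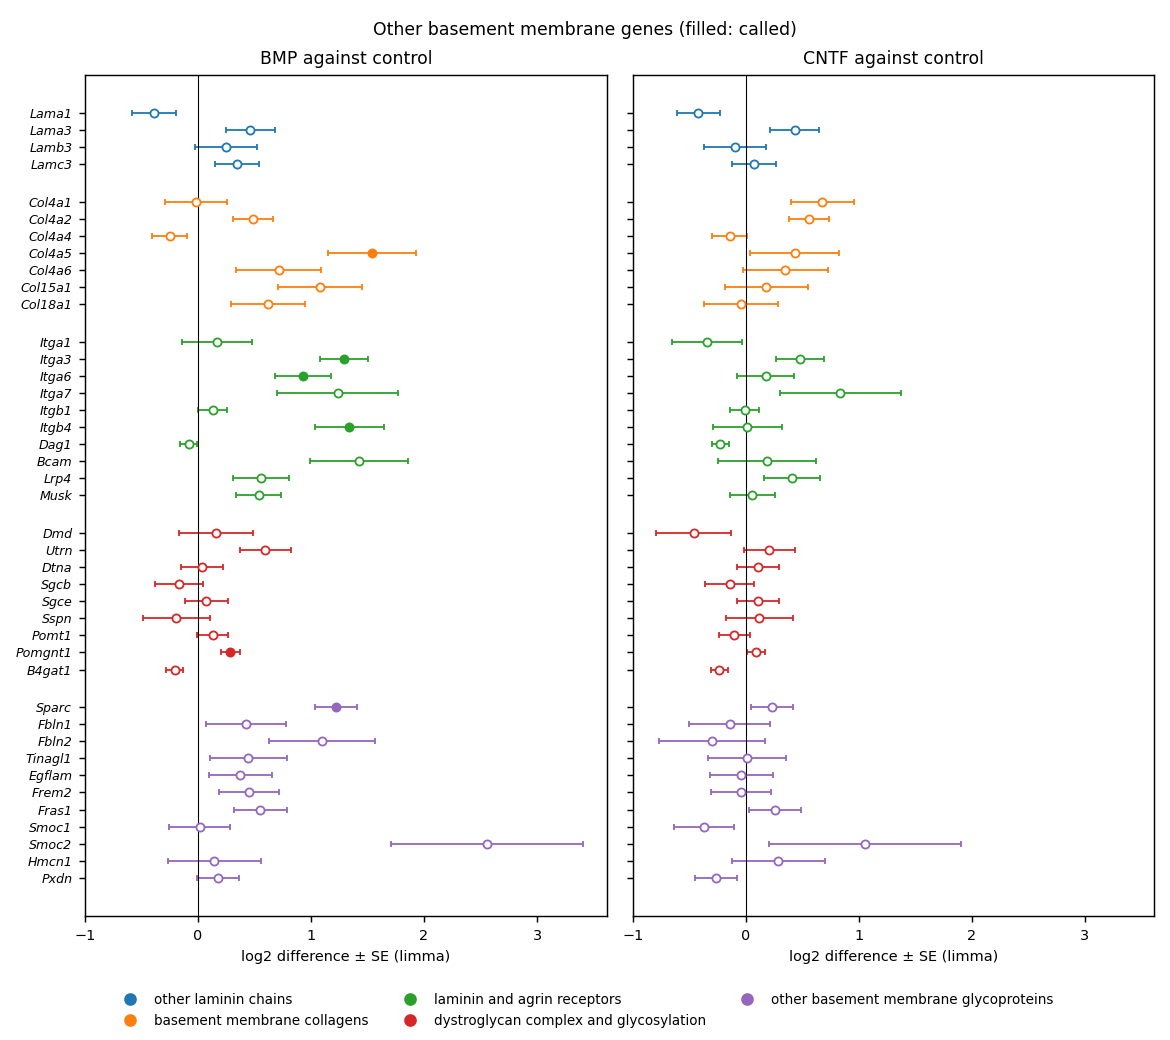
Other basement membrane genes by list, as log2 difference with limma's standard error, for BMP against control on the left and CNTF against control on the right. Filled points were called; Col4a5, Itga3, Itga6, Itgb4, Pomgnt1 and Sparc are filled on the left and none on the right.

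The cells that could supply these transcripts were looked at through marker lists. In a bulk sample, fewer cells of a type and less RNA per cell cannot be told apart. All 10 measured endothelial markers lay below the table median, and their summed intensity was 712 to 2060 on BMP arrays, 1280 to 1856 on CNTF arrays and 1126 to 1527 on control arrays. In BMP against control 1 of the 10 was called higher, Tek (0.95, limma, adjusted p = 0.036), beside 4.21% of named genes. The list's median difference was 0.0059. All 9 microglial markers also lay below the median (814 to 1246, 833 to 1488 and 857 to 1462 in the same order), as did all 7 Schwann cell markers (1190 to 4071, 1435 to 2916 and 1083 to 1731). In CNTF against control 1 of these 7 was called higher, Pmp2 (1.29, limma, adjusted p = 0.0266), beside 2.03% of named genes. For lists of this size, 1 call is near the shares of all named genes. No microglial marker was called. Markers of mural cells, the pericytes and smooth muscle of vessels, summed to 6414 to 47783 on BMP arrays, 3646 to 16710 on CNTF arrays and 3441 to 9514 on control arrays, with 7 of 10 below the table median. None of the 10 was called in BMP against control (by unadjusted p below 0.05 in limma, 3 were higher and 0 lower), and the list's median difference was 0.082. With the number as a block 2 were called higher, beside 10.6% of named genes. They were Tagln and Acta2 (limma, adjusted p = 0.0261 and 0.0371 with the block). The largest differences were those of Tagln (2.41) and Acta2 (1.13), genes of smooth muscle contractile fibres that other cells also express, while Rgs5, Abcc9, Notch3, Anpep and Myh11 lay between -0.50 and -0.10. The mural sum was highest on BMP arrays 2 and 1, the arrays with the highest Hspg2 and Nid2. The next highest mural sums were those of CNTF arrays 2 and 3 (16710 and 15711). On these, Hspg2 was at 9.61 and 9.58, below every control array, and Nid2 at 10.66 and 11.29, within the control range. Fibroblast markers summed to 6708 to 33393 on BMP arrays, 1812 to 12420 on CNTF arrays and 2760 to 10710 on control arrays, with 6 of 9 below the table median. In BMP against control 1 of the 9 was called higher, 3 with the block, beside 4.21% and 10.6% of named genes. The list's median difference was 0.44. The called gene was Col1a2, a chain of collagen I (2.61 ± 0.50, limma, adjusted p = 0.00349). Col1a1 and Col3a1 were at 1.32 and 0.97 and were called only with the block (limma, adjusted p = 0.00218 and 0.000264). Ogn and Lum were at 0.77 and 0.44, while Dcn, Twist1, Foxc1 and Aldh1a2 lay between -0.020 and 0.31. The within-number values of Col1a2 were 3.96, 4.59, 2.63, 1.48, 1.76 and 1.22 at numbers 1 to 6. They were highest at numbers 1 and 2, as for every member except Agrn. The other collagen markers of the list had another order. Those of Col1a1 were highest at numbers 3 and 2 (2.46 and 2.21), with 1.10 at number 1. Those of Col3a1 were highest at numbers 3 and 5 (1.53 and 1.27), with 0.61 at number 1. The part of these cells in the differences of the members was not tested.

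Astrocyte markers summed to 166969 to 284696 on BMP arrays, 223185 to 342163 on CNTF arrays and 160742 to 243904 on control arrays. In each comparison with control 1 of 10 was called higher (Aqp4 with BMP, Gfap with CNTF). Of all named genes, 4.21% were called higher with BMP and 2.03% with CNTF, and 1 call in 10 genes is near these shares. With the block 2 were called higher in each, Aqp4 and Gfap, beside 10.6% of named genes with BMP and 5.42% with CNTF. Gfap was at 2.33 with BMP and Aqp4 at 1.91 with CNTF, both higher in 6 of 6 numbers. These 2 passed only with the block (limma, adjusted p = 0.0169 and 0.000311, against 0.0867 and 0.147 without it). The block also called 1 lower with CNTF, Aldh1l1, beside 4.05% of named genes. The astrocyte list went both ways, with median differences of -0.024 for BMP and -0.044 for CNTF and with Aldh1l1 at -0.96 and -1.40 in these comparisons (limma, adjusted p = 0.232 and 0.118). Oligodendrocyte precursor markers summed to 29147 to 66393 on BMP arrays, 53002 to 100031 on CNTF arrays and 55182 to 97495 on control arrays. In BMP against control 6 of 7 were called lower, beside 3.02% of named genes. Oligodendrocyte markers summed to 15189 to 91073 on BMP arrays, 84817 to 282429 on CNTF arrays and 62640 to 222236 on control arrays. There 5 of 8 were called lower in BMP against control, beside the same 3.02%. Neuron markers summed to 26143 to 72761 on BMP arrays, 22509 to 51503 on CNTF arrays and 19298 to 33643 on control arrays. Of these 2 of 9 were called higher in BMP against control, beside 4.21% of named genes, and 6 with the block, beside 10.6%. The labels name no cell type, and all of these lists except the endothelial, Schwann cell and microglial ones held genes above the table median. Whether the members' differences follow these shifts in cell markers was not tested.

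**Figure D5:**
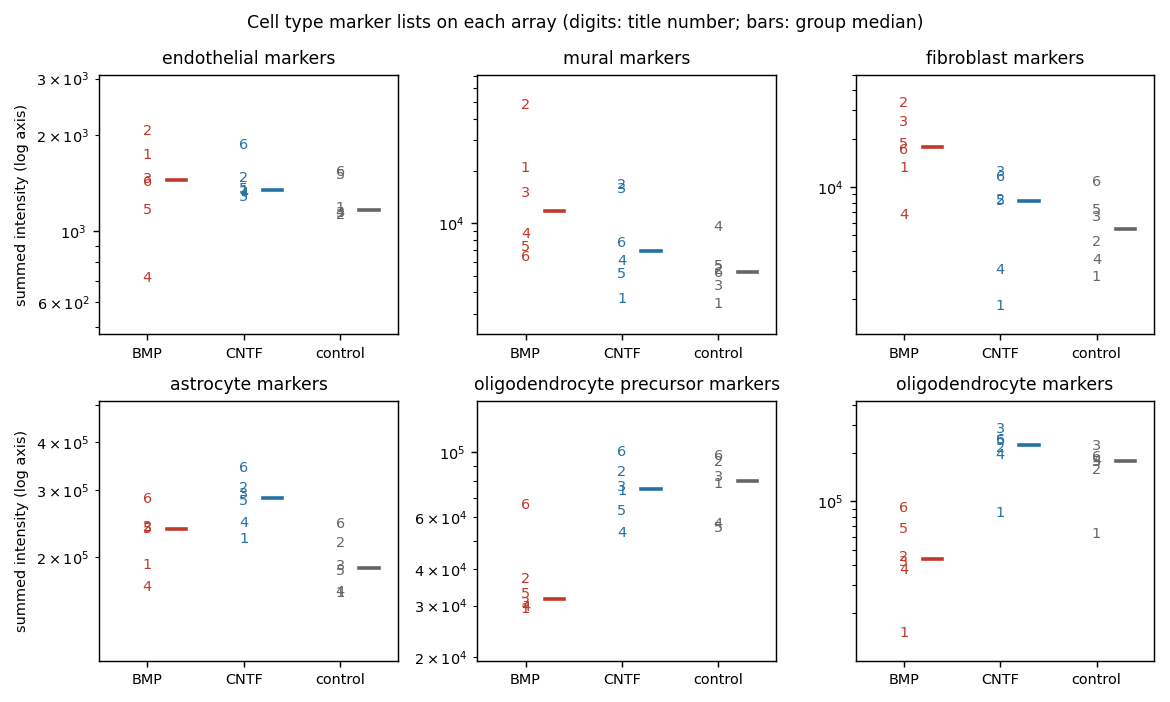
Summed intensity of 6 cell type marker lists on each array, on a log axis, with BMP, CNTF and control from left to right; digits are title numbers and bars are group medians. BMP arrays 1 and 2 are highest for mural markers, at 20772 and 47783, and oligodendrocyte markers are lower on BMP arrays, at most 91073, than on 5 of the 6 CNTF arrays and 5 of the 6 control arrays.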

How the data were processed

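Expression in rat spinal cord material was read on 18 Affymetrix arrays of 1 colour, 6 per group, and groups follow the labels. The deposited values are linear probe set intensity values between 0.404 and 162940, made by the authors. Their summary method is not given in the sources used here. Array means after trimming 2% at each end lay between 2500.7 and 2500.8, and the 75th percentiles ranged over 0.0671 on the log2 scale, under the 0.3 above which quantile normalization was planned, and the scaling as deposited was kept. The number of arrays limits the precision. The 57 control probe sets were dropped, which left 31042. The scale used was log2(intensity + 116.655), where the constant is the table's 20th percentile. Symbols came from the platform annotation, checked against the current RefSeq gene table. A single symbol was present for 20826 probe sets, several for 436 and none for 9780.

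Group means were fitted to all 18 arrays with limma 3.58.1 in R 4.3.3 (empirical Bayes with an intensity trend), with two-sided tests adjusted by Benjamini-Hochberg across the 31042 probe sets, after the scripts were tested on simulated data. The title numbers were checked before fits were compared. Deviations of same-numbered arrays correlated at 0.121 to 0.491 in all 18 pairs, and those of different numbers at -0.399 to 0.357 in 90 pairs (median -0.0915), so the numbers were taken to pair the arrays. Alternatives were this block, other added constants, quantile normalization, a filter on dim probe sets, no trend, other probe sets and left-out arrays. The main fit and the fits with left-out arrays did not use the block. Leaving out all arrays of 1 number was added after the data were seen. The members and lists were chosen with earlier results of these data known. Genes named were the members, up to 4 called genes of each partner list, and for each called member the 3 genes with the highest correlation over 18 arrays among those at or above the table median. Others are marked where they stand.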

Additional observations from a re-analysis of the deposited data

Results flagged for a closer look

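A check for single arrays far from the rest of their group was run on the 15 member probe sets in 3 groups, which gave 45 tests, and 2 arrays passed the limit. Chance alone gives about 1 such array in 20 groups. For Lama2, control array 3 lay at 7.89, above the next control array at 7.31, with the lowest control at 6.98, and the gap was 0.639 of the whole range. For Lamb2, control array 1 lay at 10.61, below the next control array at 10.97, with the highest control at 11.15, and the gap was 0.664 of the range. The Lama2 and Lamb2 differences of BMP from control stayed called whichever single array was left out, with values between 1.19 and 1.42 for Lama2 and between 0.99 and 1.13 for Lamb2.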

How the results depend on the processing

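Over all probe sets, 1865 were called in BMP against control, 721 in CNTF against control and 1934 in BMP against CNTF. With the title number as a replicate block these counts were 5176, 2349 and 4686. Leaving out single arrays gave 1282 to 2097, 483 to 795 and 1379 to 1985. Without all arrays of 1 number, which leaves 15 arrays, BMP against control had 740 calls (number 2) and 1008 (number 3), CNTF against control 389, 420, 366 and 406 (numbers 2, 3, 5 and 6), and BMP against CNTF 1111, 1214 and 1190 (numbers 2, 3 and 5). Of the 10 members, 2 were called higher in BMP against control, 8 with the replicate block, 2 to 4 without single arrays and 4 without number 5. With dim probe sets left out the count was also 2, with Nid2 called (limma, adjusted p = 0.0416) and Lama2 removed. In CNTF against control 0 were higher, with 1 under the block, 1 with dim probe sets left out, 1 without number 4 and 0 to 1 without single arrays. There 1 was lower, with 3 under the block, 0 without an intensity trend, 0 to 1 without single arrays and 0 without any of numbers 2 to 6. In BMP against CNTF 6 were higher, with 2 to 6 without single arrays, 2 without number 1 or 2, and 3 without number 3 or 5. That count was 4 with an added constant of 16. It was 5 with the constant at the table median, without an intensity trend or with dim probe sets left out. The cause of these moves was not tested. Of the 30 member differences, none changed its side of the threshold under quantile normalization, and the block ended no call and added 10. Signs turned for values near 0. They were Agrn in BMP against control (-0.024 to 0.11 without single arrays), Nid1 in the same comparison (-0.023 to 0.23), Lamb1 in CNTF against control (-0.26 to 0.047), and Nid2 there (-0.016 to 0.40, and -0.035 without number 3). For Lama4 the second probe set gave -0.032 in BMP against control, and for Lama5 it gave -0.0020 there and -0.17 in BMP against CNTF. Dim signal limits Lama2 most, and its probe set was removed by the filter on dim probe sets.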
